A study of Mus musculus with 2 samples.

Results

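The mitochondrial ribosomal protein genes are the nuclear genes named Mrpl for the large and Mrps for the small subunit of the ribosome that works inside mitochondria. They were taken from the table by symbol, as every row that starts with Mrpl or Mrps followed by a digit, without symbols that carry -ps. The rule found 77 genes of 24421 rows, 48 of the large and 29 of the small subunit, and all 77 matched a gene of the GENCODE M21 annotation. The study sequenced ribosomal RNA-depleted total RNA of mouse ovaries at 8 weeks of age to compare gene expression with and without the long noncoding RNA H19. There was 1 wild-type library and 1 library of the genotype H19KO, described as H19(Δ3). Both are labelled C57BL/6J, neither received a treatment, and the number of animals behind each library is not given in the sources used here. The values are counts per gene, with a total of 23335131 for wild-type and 23041225 for knockout RNA. A single library per genotype leaves every difference without replicates, so none carries a p-value. Every interval is the exact binomial (Clopper-Pearson) 95% interval of the knockout to wild-type ratio, which covers counting error only, and each comparison describes these 2 libraries.

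The mitochondrial ribosome translates the few proteins that the mitochondrial genome still encodes, which are core subunits of the respiratory chain and of ATP synthase. Its RNA comes from the mitochondrial genome, whereas all of its proteins are encoded in the nucleus, made in the cytosol and imported. In the ovary, steroid-producing cells and oocytes are known for large amounts of mitochondria, and the first step of steroid synthesis takes place inside them. Mutations in several of these genes in humans cause disorders of energy supply, and in some families ovarian failure.

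H19 was counted 672 times in the wild-type library and 0 times in the knockout one, at least 223-fold lower with a count of 0 taken to allow 3 counts, so the libraries followed their labels. All 7 granulosa cell markers and all 7 oocyte markers looked at were measured, while Hoxa11 and Prss28, markers of the uterus, had no count. Summed granulosa markers were at 2656 CPM (counts per 1000000 counts of the library) in wild-type and 2052 CPM in knockout RNA. Of the 7, 6 had an interval below 0, beside 24.0% of genes with at least 1 CPM. Nr5a2 was above 0, with a log2 ratio of 0.04 (0.01 to 0.07). Summed oocyte markers were at 329 and 265 CPM, with 6 of 7 below 0. Summed macrophage markers were at 526 and 676 CPM, with 4 of 5 above 0, beside 22.2% of genes with at least 1 CPM. Csf1r was below 0 (-0.24, -0.35 to -0.13). Of 6 theca and interstitial markers 5 were measured, summing to 15483 and 14793 CPM over all 6, with 4 below 0 and 1 above. That sum is mostly Hsd3b1 and Cyp11a1, while Cyp17a1, an androgen synthesis gene, had 11243 and 2834 counts (-1.98, -2.04 to -1.92) and Lhcgr a log2 ratio of -0.51. Of the oviduct markers Ovgp1 had 33 and 134 counts, Foxj1 had 11 and 3 and Pax8 had 9 and 9. Summed adipocyte markers were at 17.6 and 15.3 CPM, but the 2 measured went opposite ways. Plin1 had 341 and 253 counts, with an interval below 0 (log2 ratio -0.42). Fabp4 had 65 and 96 counts, with an interval above 0 (log2 ratio 0.57). In whole ovary, fewer cells of a type and less RNA per cell cannot be told apart, and the part of these markers in the values below was not tested.

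The promoters of Mrpl34, Mrps18a and Mrpl12 are shown for motifs that many of these genes share, and that of Mrpl23 because the gene lies near H19. RefSeq promoter entries, each from 250 bases before to 50 bases after a start site (GRCm38.p6), existed for 68 of the 77 genes. Mrpl13, Mrpl15, Mrpl19, Mrpl38, Mrpl4, Mrpl54, Mrps28, Mrps34 and Mrps35 had none. Of each promoter shown, the longest stretch before the RefSeq start site that lies outside every annotated exon is printed. For Mrpl23 this stretch lies inside the gene as GENCODE M21 places it, with a start at 142532686. Capitals mark an exact match, on either strand, to CCGGAAG, a core that ETS factors such as GABPA bind, to GCGCA and GCGC parted by 1 base of any kind, bound by NRF1, or to AAGATGG, bound by YY1.
Mrpl23 (chr7:142532831-142533011, plus strand): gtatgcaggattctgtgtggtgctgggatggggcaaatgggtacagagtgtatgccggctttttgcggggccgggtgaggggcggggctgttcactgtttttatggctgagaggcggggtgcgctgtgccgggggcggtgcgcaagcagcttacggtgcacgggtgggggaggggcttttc
Mrpl34 (chr8:71464676-71464925, plus strand): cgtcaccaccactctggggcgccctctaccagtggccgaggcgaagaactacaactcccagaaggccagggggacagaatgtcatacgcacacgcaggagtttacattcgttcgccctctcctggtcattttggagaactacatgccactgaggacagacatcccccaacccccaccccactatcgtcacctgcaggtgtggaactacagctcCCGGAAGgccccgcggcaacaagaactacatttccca
Mrps18a (chr17:46110754-46110985, plus strand): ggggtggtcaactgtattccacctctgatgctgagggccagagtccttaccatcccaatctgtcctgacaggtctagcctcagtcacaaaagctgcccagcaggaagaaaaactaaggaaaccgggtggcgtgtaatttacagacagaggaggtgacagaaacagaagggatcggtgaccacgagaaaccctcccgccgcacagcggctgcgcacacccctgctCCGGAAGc
Mrpl12 (chr11:120484387-120484612, plus strand): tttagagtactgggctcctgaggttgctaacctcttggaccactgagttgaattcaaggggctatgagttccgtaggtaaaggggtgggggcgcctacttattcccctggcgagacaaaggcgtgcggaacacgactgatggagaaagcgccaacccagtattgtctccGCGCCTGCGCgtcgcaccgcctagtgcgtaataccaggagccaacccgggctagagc

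The ETS core stood in 25 of 68 promoters of mitochondrial ribosomal protein genes, or 36.8%, against 18.7% of the 10528 promoters of genes with at least 1 CPM and 9.93% of all 27025 genes with an entry. The NRF1 motif stood in 13, or 19.1%, against 10.8% and 5.19%. The YY1 core also stood in 13, or 19.1%, against 8.20% and 7.28%. At least 1 of the motifs was present in 42 of 68, or 61.8%, against 32.9% of promoters of genes with at least 1 CPM. No match overlapped a match to another motif in these 68, and such overlaps were rare in general, in 4 of the 10528. By subunit, the ETS core stood in 14 of 42 large and 11 of 26 small subunit promoters, and the NRF1 motif in 10 of 42 and 3 of 26. The Mrpl23 stretch above held none of the motifs, and neither did the rest of its RefSeq window. The sequence around the GENCODE start of Mrpl23, which lies outside that window, was not searched. A match of letters is no evidence of binding.

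Another shared feature was position. The 77 genes lay on 17 chromosomes, with 10 on chromosome 11 as the most on any of them. For 33 of the 77, or 42.9%, the start of a protein-coding gene on the opposite strand lay within 1 kb of their own start, against 15.2% of 13025 protein-coding genes with at least 1 CPM. Mrpl46 and Mrps11, 1 gene of each subunit, are such a pair on chromosome 7, with starts 412 bases apart and spans that overlap.

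The 77 genes were close to equal in the wild-type and the knockout ovary library. Their log2 ratios ran from -0.44 to 0.38, so that the gene farthest from equality differed by 1.35-fold. The median log2 ratio was -0.01, beside -0.01 for the 13928 genes that averaged 1 CPM or more. None of the 77 had an interval wholly beyond 2-fold in either direction, beside 0.998% of genes with at least 1 CPM and 0.785% of the 8029 genes in the range of levels that these genes cover, 7.47 to 87.7 CPM. Summed over all 77, the level was 2628 CPM in wild-type and 2665 CPM in knockout RNA. That is 0.263% and 0.267% of all counts, and the log2 ratio of the sums was 0.01 (-0.01 to 0.03).

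The plot of member ratios shows every gene with its counting interval.

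**Figure D1:**
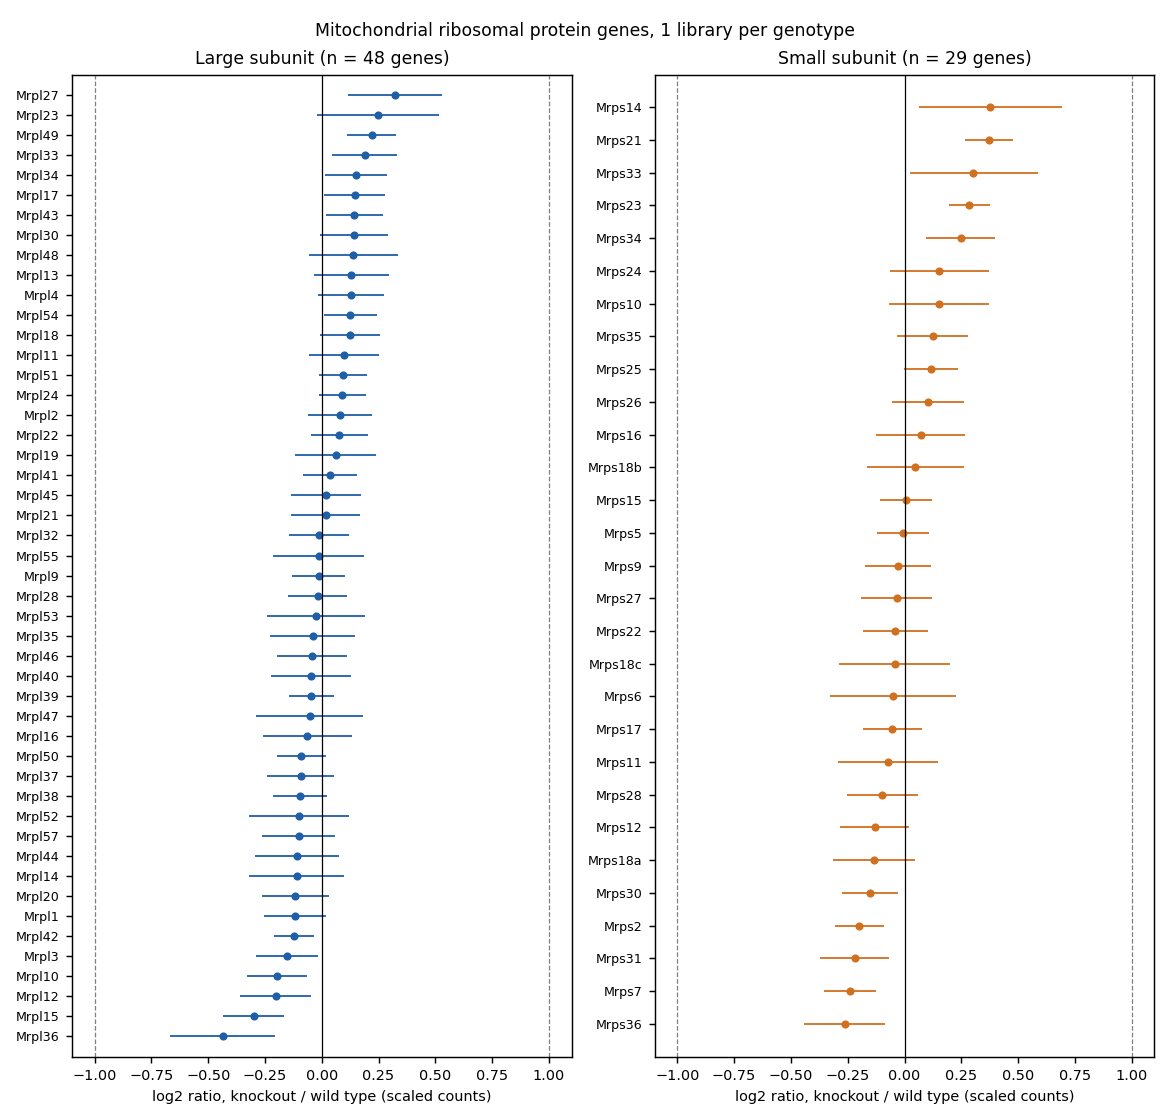
Log2 ratio of scaled counts, knockout over wild type, of each of the 48 large and 29 small subunit genes (x axis), sorted by ratio. Dots are ratios, bars 95% counting intervals, dashed lines 2-fold; all dots lie between -0.44 and 0.38.

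Small differences whose counting intervals leave out 0 were found in both directions. Each interval is separate, with no allowance for the number of genes, and some barely clear 0, as that of Mrpl54 (0.008 to 0.241). Of the 77 genes, 12 had an interval above 0, beside 22.2% of genes with at least 1 CPM, and 11 an interval below 0, beside 24.0%. Together these were 29.9% of the 77, against 46.2% of genes with at least 1 CPM and 45.5% of those in the same range of levels. The point ratio stayed within 1.5-fold for 77 of 77, against 91.8% and 95.2%. No whole interval lay beyond 1.5-fold either, beside 1.8% of genes with at least 1 CPM above and 1.21% below. Of the genes with an interval off 0, 6 of the 12 above and 4 of the 11 below overlap no other annotated gene, beside 36 of all 77. The 5 genes on chromosome 13 all had log2 ratios at or below -0.01, with a median of -0.15, a pattern picked out after the values were seen. The other 54 of the 77 had intervals that hold 0, with log2 ratios from -0.13 to 0.25. The standard deviation of the 77 log2 ratios was 0.157, while counting error alone had a root mean square of 0.0854. How far single animals differ in these genes was not measured.

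**Figure D2:**
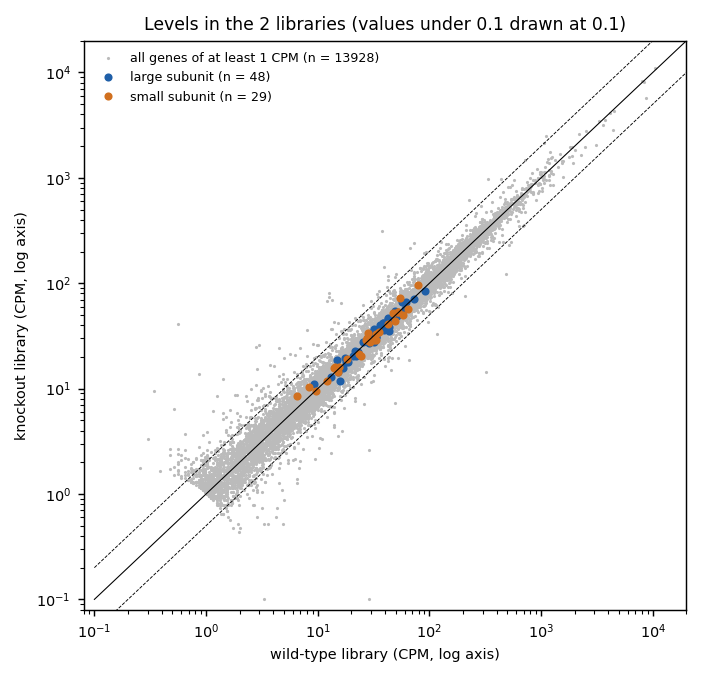
CPM in the wild-type (x axis) and knockout library (y axis), both on log axes, of genes with at least 1 CPM (grey), large subunit genes (blue) and small subunit genes (orange); solid line, equality, dashed lines, 2-fold, and values under 0.1 are drawn at 0.1. The mitochondrial ribosomal protein genes sit between 6.47 and 96.7 CPM, and none lies beyond the dashed lines.

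Large and small subunit genes had nearly equal medians. The 48 large subunit genes had a median log2 ratio of -0.01, with 7 intervals above 0, 6 below and 35 holding 0. The 29 small subunit genes had a median of -0.03, with 5 above, 5 below and 19 holding 0. Above 0 were 14.6% of large and 17.2% of small subunit genes, beside 22.2% of genes with at least 1 CPM. Below 0 were 12.5% and 17.2%, beside 24.0%. Summed large subunit counts were at 1692 and 1709 CPM, a log2 ratio of 0.00 (-0.02 to 0.02), and summed small subunit counts at 936 and 956 CPM, one of 0.02 (-0.01 to 0.05). The small subunit sum was 0.553 of the large subunit sum in wild-type RNA and 0.559 of it in knockout RNA. The difference of medians, 0.01 with the large subunit higher, turned to -0.07 over the 36 genes that overlap no other gene, to -0.03 with proteins placed by the assembled ribosome, and to -0.02 by means.

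Among large subunit proteins that line the catalytic centre in the bacterial ribosome, Mrpl27 was the farthest above equality. Mrpl27, the counterpart of bacterial L27, had 346 wild-type and 430 knockout counts, a log2 ratio of 0.32 (0.11 to 0.53). It stood highest of the 48, and its start lies 197 bases from that of Eme1, a DNA repair endonuclease gene that overlaps it on the opposite strand. Mrpl3, the counterpart of L3, was lower, with 923 and 825 counts (-0.15, -0.29 to -0.02). Mrpl2 had 813 and 854 counts (0.08, -0.06 to 0.22) and Mrpl16 had 435 and 414 (-0.06, -0.26 to 0.13), both with intervals that hold 0. Genes of the catalytic centre thus went both ways.

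Both genes of the flexible stalk that recruits translation factors were slightly lower in the knockout library. Mrpl10, which anchors the stalk, had 1011 wild-type and 877 knockout counts, a log2 ratio of -0.20 (-0.33 to -0.07). Mrpl12, which forms the stalk on Mrpl10, had 740 and 639 (-0.20, -0.36 to -0.05). Mrpl11, at the base of the stalk, had 666 and 708 (0.10, -0.06 to 0.25), an interval that holds 0. The stalk was singled out after the values were seen, so the like ratios of Mrpl10 and Mrpl12 are a description.

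Some of the proteins around the exit of the peptide tunnel are given as examples, chosen after their values were seen. Mrpl17 had 888 and 976 counts and an interval just above 0 (0.14, 0.01 to 0.28). Mrpl22 had 996 and 1045 counts (0.08, -0.05 to 0.20) and Mrpl24 had 1436 and 1521 (0.09, -0.01 to 0.20). Mrpl45, which holds the ribosome to the inner membrane, had 677 and 682 counts (0.02, -0.14 to 0.17). Mrpl44, which has an RNase III-like fold, had 512 and 472 (-0.11, -0.29 to 0.07). Apart from that of Mrpl17, these intervals hold 0.

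Mrpl23, another protein of the tunnel exit, is encoded near H19, and its interval also holds 0. The gene lies on chromosome 7, from 142532686 to 142540747 on the plus strand (mm10), and its end is 34.8 kb from H19, which lies from 142575529 to 142578143 on the minus strand. The noncoding gene Nctc1, with 0 and 1 counts, lies between them. Mrpl23 had 215 wild-type counts, or 9.21 CPM, and 254 knockout counts, or 11.0 CPM. Its log2 ratio of 0.25 (-0.02 to 0.52) was the second highest of the 48 large subunit genes. At these counts the interval does not set Mrpl23 apart from equality. Further from H19 on the same side, Lsp1, a leukocyte actin-binding protein gene, had 788 and 911 counts (0.22, 0.08 to 0.36) and the lysosomal protease gene Ctsd had 15637 and 18051 (0.22, 0.18 to 0.25). On the other side Igf2 had 275 and 632 (1.21, 1.00 to 1.42).

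**Figure D3:**
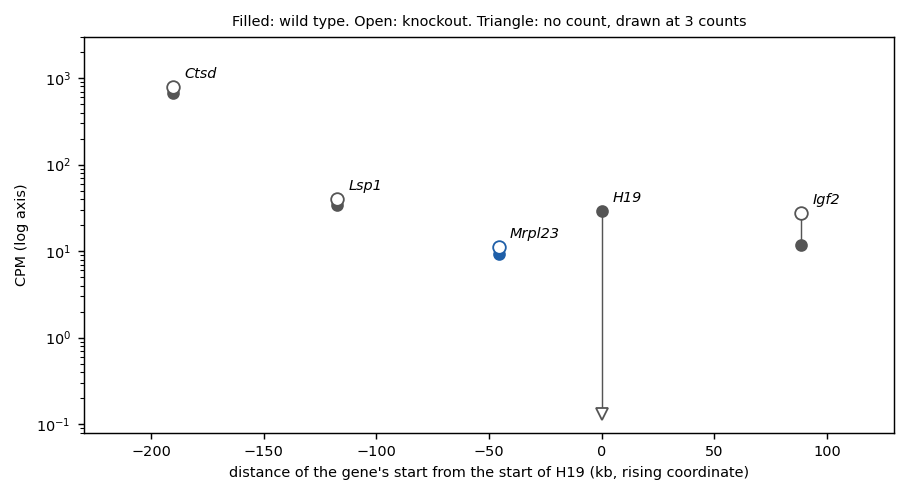
CPM on a log axis of the genes with at least 1 CPM that start within 250 kb of the start of H19, by distance in kb; filled dots, wild type, open dots, knockout, and the triangle stands at 3 counts, 0.130 CPM, for H19, which had 0. Mrpl23 (blue), 45.5 kb from the H19 start, goes from 9.21 to 11.0 CPM.

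Among the other large subunit genes, the farthest below equality was Mrpl36, the counterpart of the smallest bacterial large subunit protein. It had 369 wild-type and 271 knockout counts, a log2 ratio of -0.44 (-0.67 to -0.21), the lowest of all 77. The gene (chromosome 13, 73328513 to 73332178, plus strand) overlaps Ndufs6, a complex I subunit gene on the opposite strand, and Ndufs6 had a log2 ratio of 0.14. Mrpl15 had 1015 and 820 counts (-0.30, -0.43 to -0.17). Mrpl42, which older names placed in the small subunit and which sits in the large, had 2126 and 1942 (-0.12, -0.21 to -0.03). On the higher side, Mrpl49 had 1321 and 1529 counts (0.22, 0.11 to 0.33), Mrpl33 had 743 and 842 (0.19, 0.04 to 0.33) and Mrpl34 had 843 and 931 (0.15, 0.02 to 0.29). The start of Fau, a cytosolic ribosomal protein gene, lies 59 bases from that of Mrpl49, and Fau had a log2 ratio of 0.16. Mrpl17, Mrpl43 and Mrpl54 completed the 7 large subunit genes above 0, with log2 ratios of 0.14, 0.14 and 0.12. The interval of Mrpl54 held 0 under median-of-ratios scaling.

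In the small subunit the genes above 0 were Mrps14, Mrps21, Mrps33, Mrps23 and Mrps34. Mrps21, the counterpart of bacterial S21 (minus strand of chromosome 3, from 95862634 to 95871519), had 1282 wild-type and 1651 knockout counts, a log2 ratio of 0.37 (0.27 to 0.48). Among 23 genes with an interval off 0, it was the one whose bound nearest to 0 lay farthest from 0. Mrps23, a protein without a bacterial counterpart, had 1837 and 2227 counts (0.29, 0.20 to 0.38), and Mrps34, another of that kind, 653 and 771 (0.25, 0.10 to 0.40). Mrps14 of the head of the subunit had only 151 and 195 counts, the fewest of any member, and a ratio of 0.38 (0.06 to 0.69). Mrps33 had 193 and 237 (0.30, 0.02 to 0.59). The wide intervals of the last pair nearly reach 0.

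The 5 small subunit genes below 0 were Mrps36, Mrps7, Mrps31, Mrps2 and Mrps30. Mrps7, the counterpart of S7 in the head, had 1354 wild-type and 1141 knockout counts, a log2 ratio of -0.24 (-0.35 to -0.12). It overlaps Gga3 and Mif4gd on the opposite strand, and Gga3, a sorting adaptor gene, had a log2 ratio of -0.36. Mrps2 had 1503 and 1302 counts (-0.20, -0.31 to -0.09) and Mrps31 had 775 and 662 (-0.22, -0.37 to -0.07). Mrps36, which had 572 and 474 counts (-0.26, -0.44 to -0.08), is now known as a part of the 2-oxoglutarate dehydrogenase complex. Mrps30, with 1138 and 1020 counts (-0.15, -0.27 to -0.03), sits in the large subunit of the mammalian ribosome. Mrps12 of the decoding centre had 741 and 673 counts, with an interval that holds 0 (-0.13, -0.28 to 0.02).

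The S18 counterparts form a family of paralogues, of which Mrps18a is placed in the large subunit and Mrps18b and Mrps18c in the small. Mrps18a had 543 wild-type and 492 knockout counts (-0.13, -0.31 to 0.04). Mrps18b had 362 and 372 (0.05, -0.17 to 0.26) and Mrps18c had 282 and 272 (-0.04, -0.29 to 0.20). All of these intervals hold 0.

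Members with a bacterial number in the name, up to 36 in the large and 21 in the small subunit, were set beside those with higher numbers, most of which have no bacterial counterpart. The 44 with a bacterial number had a median log2 ratio of -0.01, with 6 intervals above 0 and 7 below. The 33 with a higher number had a median of -0.03, with 6 above and 4 below. Above 0 lay 13.6% of the 44 and 18.2% of the 33, beside 22.2% of genes with at least 1 CPM. Below 0 lay 15.9% and 12.1%, beside 24.0%. By medians, the split went opposite ways in the subunits. In the small subunit the 13 of higher number had a median of 0.10 and the 16 with a bacterial number one of -0.04. In the large subunit the 20 of higher number had a median of -0.04 and the 28 with a bacterial number one of 0.04. The means of the 20 and the 28 were only -0.008 and 0.008. Intervals did not follow these medians. Of the 20, 3 lay above 0 and 1 below, and of the 28, 4 above and 5 below. The 13 had 3 above and 3 below, and the 16 had 2 and 2. Among the 13 are Mrps30 and Mrps36, which are not small subunit proteins by the placements given above.

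Levels per exon length differed far more between members than between the libraries. Per kb of merged exons, members ran from 1.73 to 74.3 CPM in the wild type, a 43.0-fold range, and from 1.93 to 97.0 CPM in the knockout. Mrps21 was highest in both, followed by Mrpl34, Mrpl54, Mrps23 and Mrpl41. Mrpl34 was at 59.5 and 66.6 CPM per kb, Mrpl54 at 59.8 and 65.7, Mrps23 at 50.5 and 62.0 and Mrpl41 at 54.9 and 56.7, so that neighbours in this order changed places between the libraries. The small subunit median was 8.01 CPM per kb for wild-type and 8.04 for knockout RNA, and the large subunit median 14.9 and 15.6. Over the 77 genes, log2 levels correlated between libraries with a Pearson r of 0.992, as a description over genes that share library and length. The order depends on the length used. By the length of the principal transcript, Mrpl42 led in the wild type with 137 CPM per kb, ahead of Mrps21 with 113. In the knockout Mrps21 still led with 147, ahead of Mrpl42 with 127. Mrpl23 moved from rank 76 to 53, and the range became 63.4-fold.

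**Figure D4:**
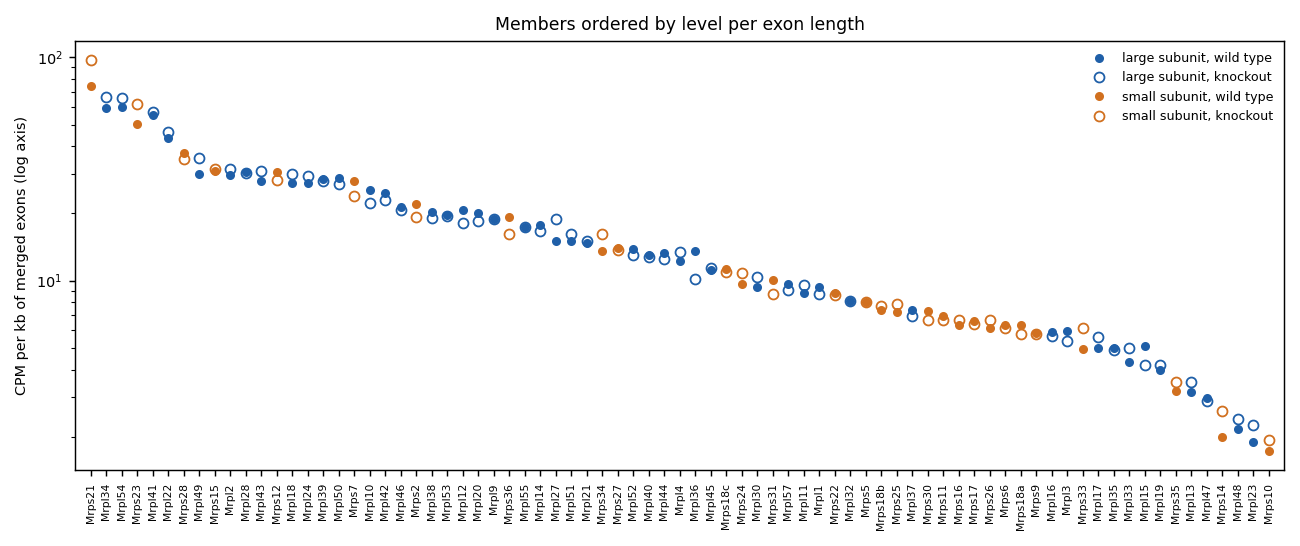
CPM per kb of merged exons on a log axis for each of the 77 genes, ordered by the mean of the libraries; filled dots, wild type, open dots, knockout, blue, large, orange, small subunit. Mrps21 stands highest at 74.3 and 97.0, and filled and open dots lie close together at every gene.

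Genes with the motifs and with close neighbours were also near equality. The 25 genes whose promoter held the ETS core had a median log2 ratio of 0.08 (range -0.15 to 0.37) and the 43 without it one of -0.05 (range -0.44 to 0.38). The 13 with the NRF1 motif had a median of -0.01 and the 13 with the YY1 core one of -0.09. Of 32 opposite-strand neighbours with a count in the table, 17 had a ratio of the same sign as the mitochondrial ribosomal protein gene beside them. Mrpl46 and Mrps11 are each other's neighbour, so that pair was counted from both sides. Neighbours with hardly any counts were included, such as Oaz3 with 1 and 0 and Lrrc46 with 4 and 5. Mrpl46 had 702 and 678 counts (-0.04, -0.20 to 0.11) and its neighbour Mrps11 had 353 and 334 (-0.07, -0.29 to 0.15). A total of 41 of the 77 genes overlap another annotated gene, and the strand setting of the counting is not given, so reads of such pairs cannot be separated.

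Proteins of the same ribosome that carry other symbols had ratios of similar size. The median log2 ratio of the 6 measured was 0.01. A single interval, that of Aurkaip1, lay off 0, beside 46.2% of genes with at least 1 CPM. Aurkaip1 of the small subunit had 846 wild-type and 998 knockout counts (0.25, 0.11 to 0.38). Dap3, a GTP-binding small subunit protein also studied in cell death, had 945 and 902 counts (-0.06), Ptcd3, which binds RNA, 1820 and 1828 (0.01), and Chchd1 had 975 and 996 (0.04). Of the large subunit, Gadd45gip1 had 1126 and 1121 counts (0.00) and Ict1, a peptidyl-tRNA hydrolase built into the ribosome, 712 and 658 (-0.11).

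The factors that build and serve the mitochondrial ribosome were likewise spread around equality. Of 27 genes for assembly and ribosomal RNA modification, 3 had an interval above 0 and 2 below, with a median log2 ratio of -0.04. These were 11.1% and 7.41%, beside 22.2% and 24.0% of genes with at least 1 CPM. Their median interval width was 0.461, beside 0.308 for genes with at least 1 CPM. Mpv17l2 was highest with 546 and 720 counts (0.41, 0.24 to 0.57), Trmt61b, an RNA methyltransferase, lowest with 203 and 146 (-0.47, -0.78 to -0.15), and the helicase Dhx30 most abundant with 2627 and 2491 (-0.07). Of 15 translation factors and messenger RNA partners, 2 lay above 0 and 2 below, or 13.3% each, with a median of -0.03. The recycling factor Mrrf had 510 and 627 counts (0.31, 0.14 to 0.48), the initiation factor Mtif3 had 860 and 724 (-0.24, -0.38 to -0.10), and the RNA-binding protein gene Lrpprc, the most abundant, 2772 and 2987 (0.12, 0.04 to 0.19). Of 20 genes that charge mitochondrial transfer RNA, 4 (20%) lay above 0 and 2 (10%) below, with a median of -0.05. Sars2 had 172 and 217 counts (0.34, 0.05 to 0.64), Lars2 had 179 and 109 (-0.71, -1.06 to -0.36) and Iars2 had 3786 and 3543 (-0.09, -0.15 to -0.02). No gene of these lists had an interval wholly beyond 2-fold, beside 0.998% of genes with at least 1 CPM.

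Values of cytosolic ribosomal protein genes and of respiratory chain genes stand beside these. Of 78 measured cytosolic ribosomal protein genes, 52 (66.7%) had an interval below 0 and 11 (14.1%) above, with a median log2 ratio of -0.11. Of the 77 mitochondrial ones, 11 lay below and 12 above. Among genes with at least 1 CPM, 24.0% lay below and 22.2% above. Rpl21 was highest with 11714 and 18692 counts (0.68), Rpl29 lowest with 7435 and 328 (-4.49), and Rpl4 most abundant with 46538 and 42567 (-0.12). Many of these genes have processed copies in the genome, and how shared reads were counted is not known. Their counts are higher, with sums of 36338 CPM for wild-type and 33943 CPM for knockout RNA. Their intervals are narrower, with a median width of 0.0878 against 0.303 for the mitochondrial ones. Nuclear genes of the respiratory chain and ATP synthase were taken by symbol, without a check that each encodes a subunit. Of 80 measured, 14 (17.5%) lay below 0 and 22 (27.5%) above. Their median was 0.01. Ndufb6 was highest with 357 and 448 counts (0.34), Ndufa4l2 lowest with 222 and 153 (-0.53), and Atp5b most abundant with 23232 and 23217 (0.01). No test of these differences is possible with 1 library per genotype.

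**Figure D5:**
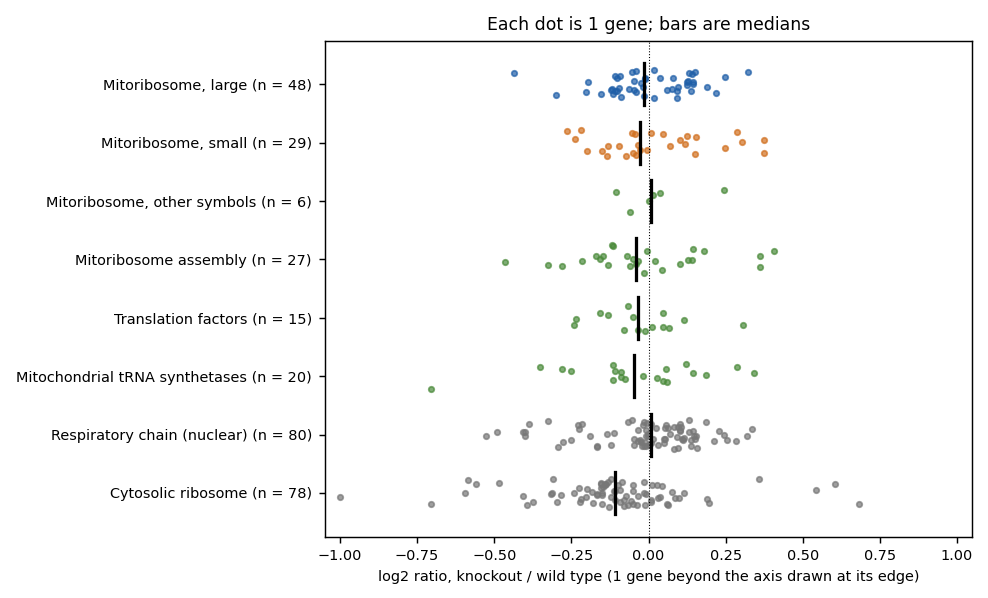
Log2 ratio of scaled counts, knockout over wild type (x axis), of each measured gene of 8 groups; dots are genes, black bars medians. The medians of the 3 groups of mitochondrial ribosomal proteins lie between -0.03 and 0.01 and that of the cytosolic ribosome at -0.11; Rpl29, at -4.49, is drawn at the edge.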

How the data were processed

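Whole ovary RNA was measured in 1 wild-type and 1 H19 knockout library, 23335131 and 23041225 counts. The authors deposited whole-number counts per gene symbol. Build mm10 and the programs DESeq2 1.0.0, STAR 2.5.0a and Cufflinks 2.2.1 are named, per the submitters' processing notes, with no role for any of them. Which program counted reads, on which annotation and with which strand setting, is not given in the sources used here. Totals differ between libraries, but whether the authors rescaled and rounded cannot be told from the values. Annotated pseudogenes of these genes, 5 by name, had 0 rows, and how reads shared with such copies were counted is not known.

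Libraries were scaled by TMM (edgeR 4.0.16) over all genes. To each scaled count 0.5 was added before the log2 ratio. Intervals are exact conditional binomial at 95%. Levels are CPM of the total count. A gene was taken as measured at a mean of at least 1 CPM, and as beyond 2-fold when its whole interval was. This is a rule of size, not a test. Genes of the whole table form the background. Coordinates and exon lengths are from GENCODE M21 (GRCm38, the build of mm10), promoters from RefSeq GRCm38.p6. Older symbols were matched through RefSeq synonyms. The interval script was tested on simulated data. Software was R 4.3.3, DESeq2 1.42.0, matplotlib 3.10.9, pandas 2.3.3, scipy 1.17.1, numpy 2.4.6 and Python 3.11.15.

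Named by rule were Mrpl23, the 5 highest and 5 lowest ratios of each subunit, the 5 highest levels per kb of exon, the Mrps18 family, Mrps30, Mrps36 and Mrpl42, all 6 ribosome proteins with other symbols and, of each other list, the highest, lowest and most abundant gene. Cell type markers are instead given by sums and counts, with single markers named after their values were seen. Other members are named for their role, or to complete a count, and were chosen after their values were seen. The members and lists were chosen with earlier results of these data known. Alternatives were other scalings, filters, added counts, gene overlap, means and subunit placement.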

Additional observations from a re-analysis of the deposited data

How the results depend on the processing

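Scaling by total counts, by median of ratios (DESeq2 1.42.0) or by totals that leave out the 10 genes of highest count, an added count of 5, no filter, and a minimum of 10 CPM left the median ratio and the subunit difference close to their values, as far as each was run. Under them 10 to 15 genes lay above 0, against 12, and 11 below. Shares of all genes under these alternatives are not at hand, so the counts stand without a background. The median of genes with at least 1 CPM moved with scaling too, from -0.0197 by median of ratios to -0.00139 by total counts. Median-of-ratios scaling ended the call of Mrpl54. Mrpl23 was recomputed under the scalings and the added count only, with ratios from 0.24 to 0.26. No gene was beyond 2-fold under any of these, by the point ratio, or beyond 1.5-fold by the whole interval. The median of -0.01 became 0.00841 by the mean and 0.0100 by summed counts. Over the 36 genes that overlap no other gene, 6 lay above 0 and 4 below, as fewer genes were counted. Among genes with at least 1 CPM, overlapping or not, 22.2% lay above and 24.0% below. Over the 36 the large minus small difference was -0.0684. With Mrps30 and Mrps18a placed in the large subunit, Mrps36 left out and the proteins with other symbols added it was -0.0268. The cause of these shifts of the subunit difference was not tested. Added after seeing the data was the length of the principal transcript, which changed the order of levels. All 100 alternative values of single named genes stayed inside their counting intervals. The scalings and the added count move a ratio by far less than an interval's width, so this could hardly have come out otherwise. No paired analysis was possible because a genotype was represented by a single library, and for the same reason no replicate could be left out. Depth limits the least abundant genes: Mrps14, with 151 and 195 counts, has an interval from 0.06 to 0.69.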

Other observations

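Other gene groups of mitochondria give further values for these libraries. Of 10 genes for mitochondrial DNA transcription and replication, 2 had an interval above 0 and 3 below, with a median log2 ratio of -0.09. These were 20% and 30%, beside 22.2% and 24.0% of genes with at least 1 CPM. The topoisomerase gene Top1mt had 601 wild-type and 842 knockout counts (0.49, 0.34 to 0.65), Polrmt, the mitochondrial RNA polymerase, 879 and 703 (-0.31, -0.46 to -0.17), and the DNA polymerase Polg, the most abundant, 1404 and 1219 (-0.20, -0.31 to -0.08). Of 10 regulators of mitochondrial gene expression, 4 lay above 0 and 1 below, with a median of -0.05. These were 40% and 10%, beside 22.2% and 24.0% of genes with at least 1 CPM. Wild-type counts of these regulators ran from 72 to 3500, so their intervals differ widely in width. Gabpa, the ETS factor, had 3500 and 3682 counts (0.08, 0.01 to 0.15), the coactivator Ppargc1a only 72 and 101 (0.49, 0.05 to 0.95) and its relative Ppargc1b 81 and 58 (-0.47, -0.99 to 0.03). Esrra, a nuclear receptor chosen here after its values were seen as the gene below 0, had 258 and 189 (-0.44, -0.72 to -0.16).

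The 12 markers of mitochondrial mass had a median ratio of -0.01 on the log2 scale, with 3 intervals above 0 and 2 below. These were 25% and 16.7%, beside 22.2% and 24.0% of genes with at least 1 CPM. Vdac2, an outer membrane channel, had 6454 and 7120 counts (0.15, 0.10 to 0.20), the citrate synthase gene Cs had 5504 and 4738 (-0.21, -0.26 to -0.15), and the chaperonin gene Hspd1, the most abundant, 17517 and 17056 (-0.03). Summed over the 12 genes the levels were 2683 and 2678 CPM.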
